A study of Homo sapiens with 6 samples.

Results

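The nuclear genes of the mitochondrial respiratory chain were examined in MCF10CA1a cells, a malignant line of the MCF10A human breast epithelial lineage, on stiff and on soft hydrogels. Members were found by symbol, as the genes whose names begin with NDUFA, NDUFB, NDUFC, NDUFS or NDUFV (complex I), SDHA to SDHD (complex II), UQCR or CYC1 (complex III), the numbered COX subunits of the nucleus (complex IV) and ATP5 (complex V). Assembly factors named NDUFAF were not members. The rule took no measured value into account and found 95 of the 26484 symbols in the deposited tables, namely 43, 4, 11, 17 and 20 for complexes I to V. Of these, 81 had enough counts to be tested beside 11517 genes in all, namely 38, 4, 10, 11 and 18.

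Cells were grown on dishes of 8000 Pa (3 libraries) or 500 Pa (3 libraries), the pascal being the unit of gel stiffness. Both groups had the same horse serum medium and the same growth factor-reduced Matrigel on the gel (0.14 mg/ml), and RNA, which the labels call cytosolic, was taken on day 5. The labels describe biological triplicates numbered 1 to 3 and do not say how the cultures were kept apart, so the p-values measure the spread between these libraries. All libraries come from 1 cell line.

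The respiratory chain passes electrons from NADH and succinate to oxygen and pumps protons across the inner mitochondrial membrane. Complex I takes electrons from NADH and complex II from succinate; complex III hands them on to cytochrome c, complex IV reduces oxygen, and complex V, the ATP synthase, uses the proton gradient to make ATP. Most subunits are encoded in the nucleus, and some of the proton-pumping ones in mitochondrial DNA. Genes encoded in mitochondrial DNA were not analysed here. Many of the nuclear genes are known targets of the transcription factors NRF1, GABPA (an ETS family factor) and YY1.

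Promoter sequences show what the members share apart from their names. RefSeq promoters on GRCh38.p14, each running from 250 bases before to 50 bases after a gene's start, were matched to 74 of the 95 members and to 63 of the 76 tested genes that encode subunits. They were searched on both strands for a shortened NRF1 motif written GCGCANGCG, an ETS motif written CCGGAAGT and a YY1 motif written AANATGGCG. For CYC1 the match, made through a synonym, was the promoter of another gene, CCNI, which held none of the motifs. The counts and shares below include this promoter, among all subunit promoters and in complex III. The NRF1 letters were found in 21 of 63 subunit promoters (33.3%), against 15.5% of 9388 promoters of all tested genes and 8.05% of 27305 promoters in the table. The ETS letters were found in 9 (14.3%, against 9.42% and 4.44%) and the YY1 letters in 15 (23.8%, against 7.39% and 3.37%). At least 1 of the motifs stood in 34 (54%, against 28.6% and 14.2%), and in 0 promoters did motifs overlap. A longer NRF1 form, in which these letters are followed by a C, was searched first. It was found in 15 promoters (23.8%, against 12.3% and 6.28%), and with it 32 held at least 1 motif (50.8%, against 26% and 12.7%). The shorter form was adopted after these counts were seen. By complex, with the shorter form, 16 of 32 promoters of complex I, 3 of 3 of complex II, 6 of 8 of complex III, 3 of 9 of complex IV and 6 of 11 of complex V held a motif. A match of letters is a description and not a site of binding.

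The 250 bases before the start are printed for 4 genes that stand for the range of the results below, 5′ to 3′ on the gene's strand, with motif matches in capitals. NDUFB7 (chr19:14572067-14572316, minus strand) was the member that passed in the paired fit over all libraries and held none of the motifs. NDUFS8 (chr11:68030431-68030680, plus strand) came next to it and held the YY1 letters. UQCRC1 (chr3:48609647-48609896, minus strand) held the NRF1 letters at 2 places, both on the other strand. NDUFS1 (chr2:206159445-206159694, minus strand), a member with higher values at 8000 Pa, held the ETS letters on the other strand. GENCODE 29 starts these last 3 genes further upstream than RefSeq, so the whole UQCRC1 window and part of the NDUFS8 and NDUFS1 windows lie within the GENCODE gene. UQCRC1 and NDUFS1 also hold the YY1 letters, outside the bases printed.
NDUFB7: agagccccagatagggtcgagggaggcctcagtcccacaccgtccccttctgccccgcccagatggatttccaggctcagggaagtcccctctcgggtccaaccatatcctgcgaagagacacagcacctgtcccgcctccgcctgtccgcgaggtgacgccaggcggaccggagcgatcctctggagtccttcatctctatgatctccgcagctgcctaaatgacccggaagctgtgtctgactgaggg
NDUFS8: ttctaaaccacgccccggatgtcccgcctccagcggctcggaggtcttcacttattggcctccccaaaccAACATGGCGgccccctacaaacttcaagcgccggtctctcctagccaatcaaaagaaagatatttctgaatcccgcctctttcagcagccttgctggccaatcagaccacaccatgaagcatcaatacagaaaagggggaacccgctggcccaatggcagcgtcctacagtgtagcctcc
UQCRC1: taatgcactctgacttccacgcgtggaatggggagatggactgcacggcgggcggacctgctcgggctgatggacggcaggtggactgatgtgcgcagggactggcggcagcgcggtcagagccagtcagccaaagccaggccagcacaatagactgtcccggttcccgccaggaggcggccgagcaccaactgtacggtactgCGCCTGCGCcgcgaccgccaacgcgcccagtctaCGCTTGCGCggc
NDUFS1: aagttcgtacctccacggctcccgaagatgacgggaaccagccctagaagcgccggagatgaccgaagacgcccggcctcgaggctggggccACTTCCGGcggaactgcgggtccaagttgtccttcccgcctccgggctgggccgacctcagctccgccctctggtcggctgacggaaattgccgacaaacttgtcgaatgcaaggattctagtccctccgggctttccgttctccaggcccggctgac

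Library totals were 8305601 to 18779742 counts. Levels are given as CPM, each gene's counts scaled to a common library total, with TMM, edgeR's correction for the makeup of each library. Same-numbered libraries of both stiffnesses varied together, so a fit that also has a term for the replicate number (the paired fit) stands beside the unpaired one where calls differ. One library stood apart for these genes: 8000 Pa replicate 1 was the lowest of the 6 libraries for 51 of 81 tested members (63%), against 33.3% of all tested genes. At the other end, 500 Pa replicate 3 was the highest for 35 members (43.2%), against 23% of all tested genes. The TMM factors were also highest and lowest in these libraries, at 1.21 and 0.843, and the part of this in the results was not tested.

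Transcripts of the respiratory chain were abundant in both groups, and 57 of 81 tested members had lower values at 8000 Pa, or 37 after a correction for transcript length, with groups that overlapped. The 95 members together held 3.00%, 3.09% and 3.4% of the counts in 8000 Pa replicates 1 to 3, against 3.46%, 3.12% and 3.35% in 500 Pa replicates 1 to 3. Their summed level was 24824, 29641 and 36440 CPM in the 8000 Pa libraries, against 36299, 29769 and 39704 CPM in the 500 Pa libraries. The groups overlapped, with means of 30302 ± 5836 CPM at 8000 Pa and 35257 ± 5049 CPM at 500 Pa (SD, n = 3 each). The log2 ratio of these means was -0.22, and -0.06 with library size alone. Leaving out 8000 Pa replicate 1 gave -0.09, leaving out 8000 Pa replicate 3 gave -0.37, and leaving out 500 Pa replicate 3 gave -0.12. In bulk RNA, fewer cells rich in mitochondria and less of this RNA per cell cannot be told apart.

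Every complex had a lower summed level at 8000 Pa under TMM scaling, while with library size alone the log2 ratio was 0.07 for complex II and 0.01 for complex V. Complex I summed to 9151 ± 2068 CPM at 8000 Pa and 11031 ± 1845 CPM at 500 Pa, and complex III to 4107 ± 883 CPM at 8000 Pa and 4864 ± 825 CPM at 500 Pa (SD, n = 3 each). Complex IV summed to 6272 ± 1468 CPM at 8000 Pa and 7503 ± 1095 CPM at 500 Pa. Complex V summed to 9784 ± 1316 CPM at 8000 Pa and 10814 ± 1265 CPM at 500 Pa, and complex II, the smallest, to 989 ± 121 CPM at 8000 Pa and 1046 ± 91.6 CPM at 500 Pa. The libraries of the groups overlapped in all 5 complexes, and no difference of means exceeded the sum of the SDs.

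**Figure D1:**
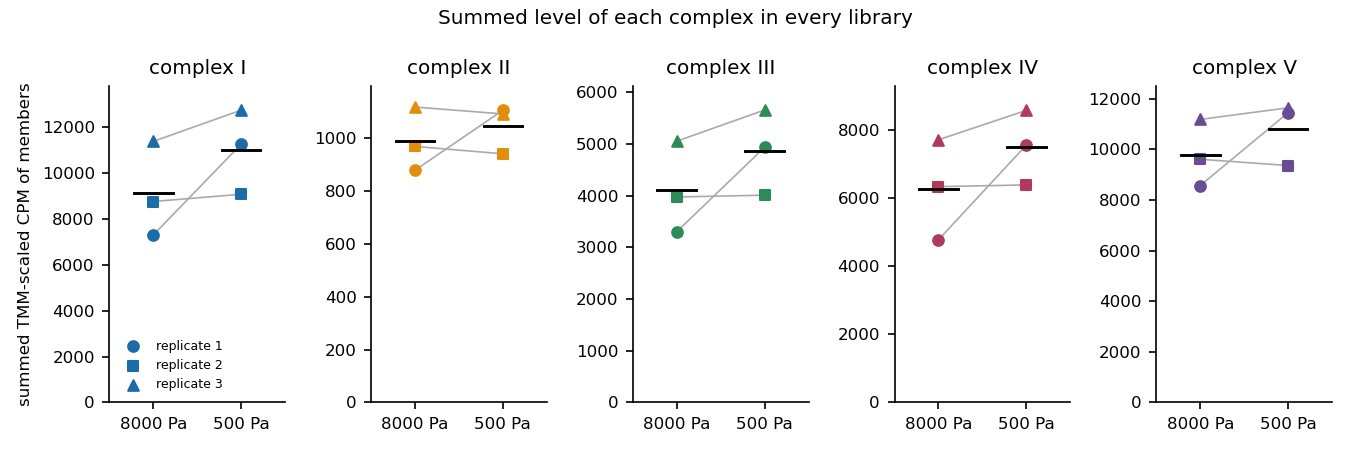
Summed TMM-scaled CPM of the members of each complex (y axis) in every library, 8000 Pa left of 500 Pa; grey lines join libraries with the same replicate number and black bars are group means. Replicate 1 at 8000 Pa is the lowest library in every complex, and under library size alone the mean sums of complexes II and V are not lower at 8000 Pa.

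No member passed in the unpaired test. edgeR's quasi-likelihood test with Benjamini-Hochberg adjustment over 11517 genes called 0 genes (0%) and 0 of 81 members at an FDR of 0.05, limma-voom likewise 0 genes, and DESeq2 7 genes and 0 members. At an unadjusted p under 0.05 the same edgeR test held 282 genes (2.45%) and 0 members. In the paired fit, 61 genes passed (0.53%), of which 31 fell (0.269%) and 30 rose (0.26%), and 1 member fell, the complex I gene NDUFB7. Leaving out a pair gave 12 to 81 calls. At an unadjusted p under 0.05 in the paired fit, 11 of 81 members were lower at 8000 Pa, against 6.12% of all tested genes, and 1 member, UQCRB, was higher, against 4.49%. The 11 were NDUFA7, NDUFA11, NDUFA13, NDUFB7, NDUFB11, NDUFS3, NDUFS7 and NDUFS8 of complex I, COX5B of complex IV, and ATP5D and ATP5G1 of complex V. These unadjusted values carry no call.

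Fold changes, given as log2 of 8000 Pa over 500 Pa, ran from -0.87 to 0.81 among the 81 tested members, with a median standard error of 0.26. They were below 0 for 57 of 81 members, against 48.8% of all tested genes. The median was -0.17, against 0.01 over all tested genes, which puts the members at -0.18 relative to all genes. With single libraries left out this relative median ran from -0.33, without 8000 Pa replicate 3, to -0.04, without 8000 Pa replicate 1. The median of complex IV was -0.28 with 9 of 11 members below 0, and -0.13 with library size alone. The other medians were -0.11 for complex I (25 of 38 below 0), -0.18 for complex II (3 of 4), -0.18 for complex III (7 of 10) and -0.14 for complex V (13 of 18). With library size alone the median of all genes moved to 0.17 and that of the members to -0.01, so the members still stood -0.18 from all genes, with 42 of 81 below 0. With a correction for transcript length, the members stood 0.01 from all genes at a median of 0.02, with 37 of 81 below 0. Members were shorter than other genes, with a median transcript of 761 bases against 2490 bases over all tested genes.

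**Figure D2:**
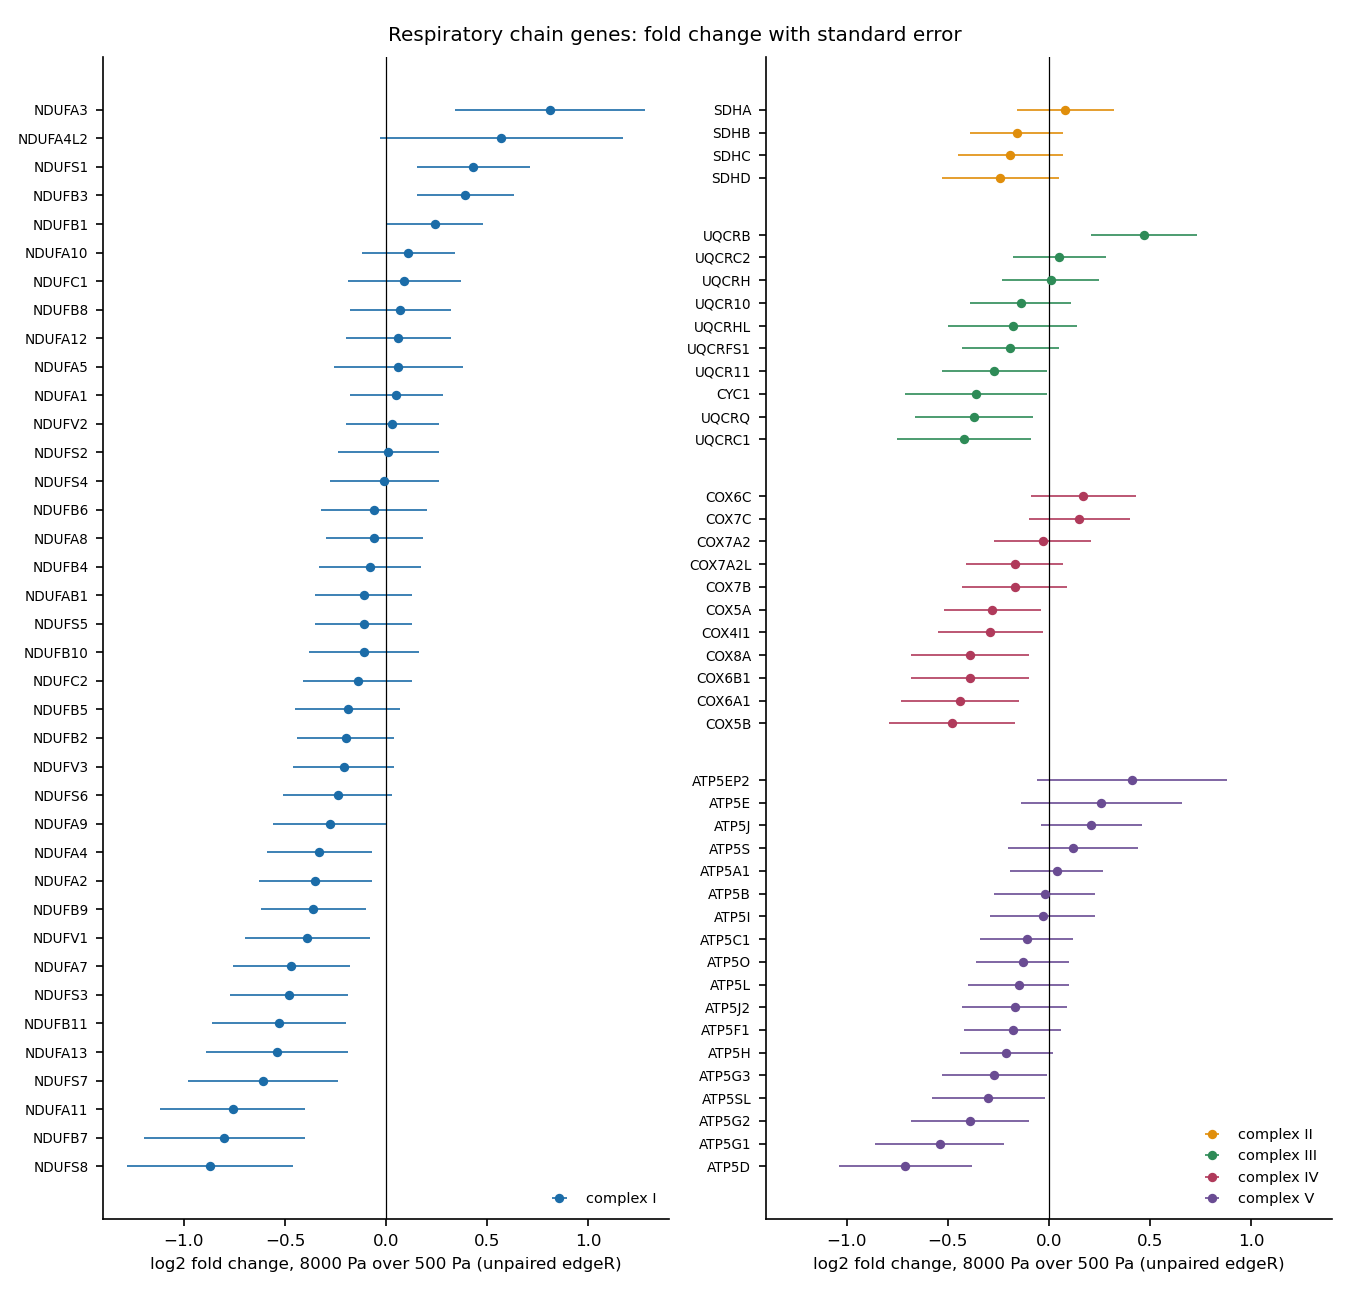
Log2 fold change of 8000 Pa over 500 Pa (x axis, unpaired edgeR fit) of the 81 tested members by complex, with bars of 1 standard error. Points left of 0 number 57, or 42 with library size alone and 37 with a correction for transcript length, and 0 members passed the test.

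Same-numbered libraries showed where the differences lay. The median log2 ratio of the members, with 0.5 CPM added, was -0.46 in pair 1, -0.03 in pair 2 and -0.02 in pair 3, against 0.03, -0.02 and -0.02 over all tested genes. In pair 1, 69 of 81 members were lower at 8000 Pa, against 48.6% of all genes, while 43 were lower in pair 2 and 42 in pair 3, against 52% and 51.6%. Pair 1 medians were -0.35, -0.34, -0.50, -0.67 and -0.46 for complexes I to V. In pairs 2 and 3 the medians of the 5 complexes lay between -0.14, for complex IV in pair 3, and 0.06, for complex I in pair 3. Without replicate 1 the paired fit gave a member median of -0.01, against 0.00 over all genes.

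**Figure D3:**
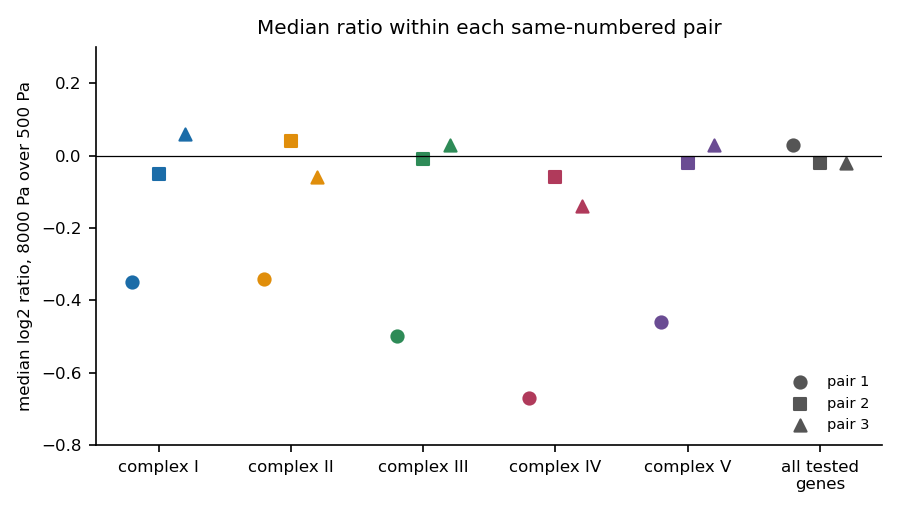
Median log2 ratio of 8000 Pa over 500 Pa (y axis) over the tested members of each complex, and over all tested genes, in each same-numbered pair; symbols mark pairs 1 to 3. All 5 complexes lie between -0.67 and -0.34 in pair 1 and between -0.14 and 0.06 in pairs 2 and 3.

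The direction was the same in all 3 pairs for 26 members. Of these, 21 were lower at 8000 Pa, against 15.2% of all tested genes, and 5 were higher, against 14.6%. The 5 were NDUFB1, NDUFB3, NDUFS1, UQCRB and ATP5EP2. Groups did not overlap for 1 member, NDUFB3, which was higher (against 4.02% of all tested genes), and for 0 members that were lower (against 2.85%).

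In complex I the catalytic core and the accessory subunits differed among themselves. NDUFB7, an accessory subunit of the membrane arm, lies at chr19:14566078-14572062 on GRCh38. It had 115, 165 and 343 CPM in 8000 Pa replicates 1 to 3, against 372, 216 and 493 CPM in 500 Pa replicates 1 to 3. The groups overlapped, but the 8000 Pa library was the lower in each pair, with log2 ratios of -1.70, -0.39 and -0.52 in pairs 1 to 3. The paired fold change was -0.87 (SE 0.24, adjusted p = 0.0491, edgeR), against -0.80 (SE 0.40, adjusted p = 1) unpaired. NDUFB7 has no pseudogene by name and no gene that overlaps its exons in GENCODE 29. The call was lost with DESeq2 and the block (-0.87, adjusted p = 0.128), with a correction for GC content and the block (-0.51, adjusted p = 0.157), with length and GC corrections and the block (-0.32, adjusted p = 0.368) and without replicate 1 (-0.44, adjusted p = 0.826) or replicate 3 (-0.99, adjusted p = 0.712), and stood without replicate 2 (-1.11, adjusted p = 0.0495).

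The 7 core subunits bind the flavin and the iron-sulfur clusters or shape the quinone site, and 0 of 7 passed in either fit. Their median log2 fold change was -0.39, with 4 below 0, and their pair medians were -0.94, 0.01 and -0.25. NDUFS8, an iron-sulfur protein (chr11:68030617-68036644), had 159, 212 and 415 CPM in the 8000 Pa libraries, against 476, 239 and 724 CPM in the 500 Pa libraries. It was lower at 8000 Pa in each pair, with a log2 ratio of only -0.18 in pair 2, and had a paired fold change of -0.85 (SE 0.24, adjusted p = 0.0612, edgeR). Without replicate 2 the paired fit called it, at -1.19 with an adjusted p of 0.0356. NDUFS7, the subunit that carries the last iron-sulfur cluster before ubiquinone, averaged 273 ± 142 CPM at 8000 Pa and 417 ± 164 CPM at 500 Pa (SD, n = 3 each). NDUFV1, which binds the flavin that receives electrons from NADH, averaged 326 ± 119 CPM at 8000 Pa and 427 ± 129 CPM at 500 Pa. NDUFS3 averaged 224 ± 55.1 CPM at 8000 Pa and 313 ± 86.4 CPM at 500 Pa. All of these means differed by less than the sum of their SDs.

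Of the core genes, NDUFS1 and NDUFV2 did not have lower means at 8000 Pa. NDUFS1, the large iron-sulfur subunit (chr2:206114817-206159603), had 219, 147 and 120 CPM in the 8000 Pa libraries, against 132, 131 and 96.9 CPM in the 500 Pa libraries. It was higher at 8000 Pa in each pair, and 8000 Pa replicate 3 lay within the range of the 500 Pa libraries. Its unpaired fold change was 0.43 (SE 0.28, adjusted p = 1, edgeR). NDUFV2 averaged 259 ± 23 CPM at 8000 Pa and 254 ± 19.7 CPM at 500 Pa. NDUFV2 was level between the groups within its SDs.

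Among the accessory subunits, NDUFA11 of the membrane arm came closest to a call after NDUFB7 and NDUFS8. It had 223, 277 and 544 CPM in the 8000 Pa libraries, against 606, 369 and 791 CPM in the 500 Pa libraries, with a paired fold change of -0.80 (SE 0.24, adjusted p = 0.0989, edgeR). NDUFA13, also known as GRIM-19, had 294, 419 and 658 CPM in the 8000 Pa libraries, against 682, 406 and 907 CPM in the 500 Pa libraries. It was slightly higher at 8000 Pa in pair 2 and lower in the other pairs. NDUFS5, the most abundant complex I member per length at 880 CPM per kb over all libraries, had 391, 439 and 555 CPM in the 8000 Pa libraries, against 506, 449 and 544 CPM in the 500 Pa libraries. NDUFB3, a membrane arm subunit named here after its values were seen, had 148, 146 and 133 CPM in the 8000 Pa libraries, against 116, 118 and 91.7 CPM in the 500 Pa libraries. Its groups did not overlap, with a fold change of 0.39 (SE 0.24, adjusted p = 1, edgeR).

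**Figure D4:**
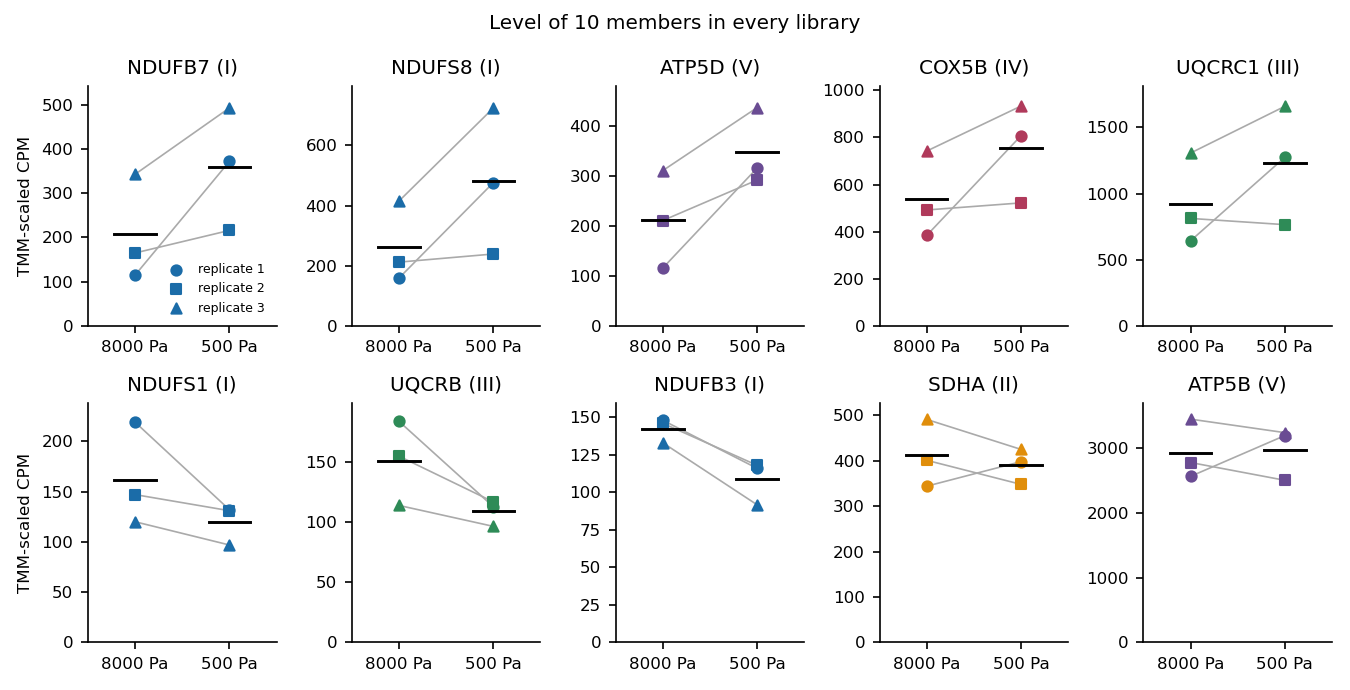
TMM-scaled CPM (y axis) of 10 members in every library, 8000 Pa left of 500 Pa; grey lines join libraries of the same replicate number and black bars are group means. The upper row shows genes lower on average at 8000 Pa with overlapping groups, and in the lower row only NDUFB3 has groups that do not overlap.

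Complex II, which is also the succinate dehydrogenase of the TCA cycle, had the summed ratio closest to 0 of the 5 complexes, at -0.08 on the log2 scale with TMM, while complex V was closer with library size alone (0.01), and the differences between complexes were not tested. SDHA, the flavoprotein, had 344, 401 and 491 CPM in the 8000 Pa libraries, against 398, 348 and 425 CPM in the 500 Pa libraries. SDHB, the iron-sulfur subunit, had 257, 296 and 311 CPM in the 8000 Pa libraries, against 358, 288 and 323 CPM in the 500 Pa libraries. SDHC and SDHD anchor the complex in the membrane. SDHC averaged 208 ± 39.2 CPM at 8000 Pa and 237 ± 45.5 CPM at 500 Pa, and SDHD 81.3 ± 18.1 CPM at 8000 Pa and 96 ± 26 CPM at 500 Pa (SD, n = 3 each). SDHD was the only one of the 4 with a lower 8000 Pa value in each pair, and the log2 fold changes of the 4 lay between -0.24 and 0.08 with 0 of 4 past the test. SDHA went to -0.05 without 8000 Pa replicate 3, and SDHB to 0.01 in the paired fit without replicate 1.

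In complex III the members lay on both sides of 0. UQCRC1, a core protein of the matrix side (chr3:48599002-48610976), had 643, 812 and 1306 CPM in the 8000 Pa libraries, against 1274, 765 and 1659 CPM in the 500 Pa libraries. Its fold change of -0.42 (SE 0.33, adjusted p = 1, edgeR) had opposite directions in pairs 2 and 1. UQCRQ, a small subunit that borders the ubiquinone site, had 769, 901 and 1282 CPM in the 8000 Pa libraries, against 1290, 925 and 1600 CPM in the 500 Pa libraries. UQCRB, another small subunit, went the other way, with 184, 155 and 114 CPM in the 8000 Pa libraries, against 113, 117 and 96.6 CPM in the 500 Pa libraries. UQCRB was higher at 8000 Pa in each pair with a fold change of 0.47 (SE 0.26, adjusted p = 1, edgeR), and passed where length and GC corrections were joined to the block (0.64, adjusted p = 0.0494). UQCR10 averaged 464 ± 99.5 CPM at 8000 Pa and 510 ± 46.3 CPM at 500 Pa (SD, n = 3 each).

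Complex IV had 0 of 11 tested members past the test. COX5B, which binds zinc and sits on the matrix side (chr2:97646040-97648383), had 384, 492 and 742 CPM in the 8000 Pa libraries, against 807, 522 and 933 CPM in the 500 Pa libraries. The values were lower at 8000 Pa in each pair, though the groups overlapped, and the paired fold change was -0.49 (SE 0.24, adjusted p = 0.443, edgeR). COX6A1 had 501, 686 and 920 CPM in the 8000 Pa libraries, against 1008, 682 and 1169 CPM in the 500 Pa libraries. COX6B1, which faces the intermembrane space, had 668, 936 and 1237 CPM in the 8000 Pa libraries, against 1201, 964 and 1556 CPM in the 500 Pa libraries. In both genes pair 2 was nearly level, at log2 ratios of 0.01 and -0.04, and pair 1 was at -1.01 and -0.85. COX4I1, a regulatory subunit, averaged 852 ± 218 CPM at 8000 Pa and 1044 ± 137 CPM at 500 Pa, and COX8A 523 ± 194 CPM at 8000 Pa and 685 ± 113 CPM at 500 Pa (SD, n = 3 each). COX7B averaged 532 ± 88.2 CPM at 8000 Pa and 597 ± 132 CPM at 500 Pa. COX6C and COX7C had fold changes above 0, at 0.17 (SE 0.26) and 0.15 (SE 0.25). NDUFA4 falls in complex I by its prefix but is now known as a subunit of complex IV, and it averaged 809 ± 179 CPM at 8000 Pa and 1016 ± 165 CPM at 500 Pa.

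Complex V had 0 of 18 tested members past the test. These 18 include ATP5S and ATP5SL, which fall here by prefix but are not subunits, and the pseudogene ATP5EP2. ATP5B, the catalytic beta subunit and the member with the most counts, had 2569, 2783 and 3454 CPM in the 8000 Pa libraries, against 3200, 2508 and 3245 CPM in the 500 Pa libraries. Its fold change was -0.02 (SE 0.25), and 0.13 with library size alone. ATP5D, the delta subunit of the central stalk (chr19:1241746-1244826), stood lower, with 116, 211 and 311 CPM in the 8000 Pa libraries, against 316, 292 and 437 CPM in the 500 Pa libraries. All 3 pairs were lower at 8000 Pa, with overlapping groups, and the paired fold change was -0.80 (SE 0.23, adjusted p = 0.084, edgeR). Both GC correction (-0.34) and the absence of 8000 Pa replicate 1 (-0.42) took the unpaired value of -0.71 closer to 0.

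The proton-carrying c ring of complex V is built from 1 protein encoded by 3 genes. ATP5G1 had 409, 465 and 737 CPM in the 8000 Pa libraries, against 871, 491 and 981 CPM in the 500 Pa libraries. ATP5G2 averaged 401 ± 137 CPM at 8000 Pa and 525 ± 106 CPM at 500 Pa, and ATP5G3 1250 ± 219 CPM at 8000 Pa and 1508 ± 299 CPM at 500 Pa (SD, n = 3 each). The 3 genes kept similar shares of their summed counts: ATP5G3 held 55.2% over all libraries, ATP5G1 26.7% and ATP5G2 18.1%. ATP5G1's share was 22.1% to 26.8% in the 8000 Pa libraries and 23.1% to 29.9% in the 500 Pa libraries, which overlapped. ATP5G1 has 7 pseudogenes by name, and reads that fit several copies could be split or lost.

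Isoform pairs were dominated by the widely expressed forms. The lung, muscle and testis forms were nearly without counts in all 6 libraries and were not tested: COX4I2, COX6A2, COX7B2 and COX8C had 0 counts, COX7A1 had 1 and COX6B2 had 8. A count of 0 allows a share of up to 0.00485% of the COX4 counts for COX4I2, 0.00552% for COX6A2, 0.00812% for COX7B2 and 0.00766% for COX8C, taking 3 counts over all libraries as the limit. The COX7A counts were 70.3% COX7A2, the widely expressed form, and 29.7% COX7A2L, a supercomplex factor rather than a standard subunit. COX7A2 averaged 543 ± 82.6 CPM at 8000 Pa and 553 ± 64.8 CPM at 500 Pa, and COX7A2L 211 ± 28.8 CPM at 8000 Pa and 237 ± 13.9 CPM at 500 Pa. NDUFA4L2, a relative of NDUFA4 known as a hypoxia target, had 3.43, 1.69 and 10.1 CPM in the 8000 Pa libraries, against 5.2, 2.35 and 2.43 CPM in the 500 Pa libraries. Its fold change of 0.57 (SE 0.60) rested on 8000 Pa replicate 3 and was -0.35 without it. UQCRHL, a near copy of the hinge gene UQCRH, held 5.13% of their joint counts. UQCRH averaged 351 ± 42.2 CPM at 8000 Pa and 349 ± 54 CPM at 500 Pa, and UQCRHL 17.6 ± 1.34 CPM at 8000 Pa and 19.9 ± 5.22 CPM at 500 Pa.

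Median levels per length differed between complexes. Over all libraries the median tested member had 1009 CPM per kb of transcript in complex IV, 471 in complex V, 402 in complex III, 295 in complex I and 228 in complex II. The highest members were COX6B1 at 1927, UQCRQ at 1925, ATP5G3 at 1638, ATP5B at 1610 and COX6A1 at 1447 CPM per kb. Transcript lengths are medians over GENCODE 29 transcripts of each gene, so this order is approximate.

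Some members had fewer counts than subunits of the same complex, and their low values cannot be read as low expression. NDUFA6 (chr22:42085525-42090955) had 23 counts in all and was not tested. The neighbouring genes SMDT1 and TCF20 had 2 counts each. NDUFA3 (chr19:54102728-54109257) averaged 5.18 ± 1.89 CPM at 8000 Pa and 2.98 ± 1.12 CPM at 500 Pa (SD, n = 3 each). Its neighbour RPS9, a ribosomal protein gene, averaged 4.55 CPM over all libraries, against a median of 716 CPM over 82 ribosomal protein genes. ATP5E, the epsilon subunit, averaged 12.5 ± 1.87 CPM at 8000 Pa and 10.4 ± 5.14 CPM at 500 Pa, and has 2 pseudogenes by name, of which ATP5EP2 had 203 counts. NDUFA3 had the highest fold change of the members, 0.81 (SE 0.47, adjusted p = 1, edgeR), on 266 counts in all. How reads that fit several places were counted is not given in the sources used here, and 45 of the 81 tested members have at least 1 pseudogene by name.

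Besides NDUFA6 and the isoforms above, the remaining 7 of 14 untested members were not standard subunits. The antisense genes NDUFA6-AS1, NDUFB2-AS1 and NDUFV2-AS1 had 0, 55 and 19 counts in all libraries. The read-through loci NDUFC2-KCTD14 and ATP5J2-PTCD1 had 0 counts. The pseudogene UQCRBP1 had 33 counts and the gene copy ATP5L2 had 6. Whether reads were counted by strand is not given in the sources used here, so reads of an antisense gene and of its partner may not be told apart.

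Members with transcripts richer in GC had lower fold changes. Across the 81 tested members, the fold change and GC content had a Pearson r of -0.51 and a Spearman rho of -0.55, against -0.36 and -0.39 across 11344 tested genes with a GC value. Genes share the same 6 libraries and are not independent, so these values are descriptions. In pair 1 the Pearson r was -0.67 in the members and -0.61 in all genes. In pair 2 it was -0.15 and 0.05, and in pair 3 -0.37 and 0.02, for members and all genes in this order. A correction for GC content brought the members to -0.18 and all genes to -0.02.

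In the unpaired fit the members had lower medians than other genes on both sides of the median GC content of 49.2%, but the single pairs differed. The 45 members above it had a median fold change of -0.29 with 36 below 0, against -0.14 for 5627 other genes above it. The 36 members at or below it had a median of -0.07 with 21 below 0, against 0.13 for 5636 other genes. In pair 1 members and other genes had medians of -0.74 and -0.44 above the cut, and -0.19 and 0.37 at or below it. In pair 2 these were -0.04 and 0.01 above, and 0.00 and -0.04 at or below. In pair 3 they were -0.15 and -0.05 above, and 0.13 and 0.01 at or below. In pairs 2 and 3 the members were thus lower than other genes above the cut only. After GC correction the members' median was -0.23 over all 81, against -0.02 over all genes, with 61 of 81 below 0. Where length and GC corrections were joined to the block it was -0.07, against -0.02, with 52 below 0. NDUFB7, at 65% GC, and ATP5D, at 69.3%, were among the members richest in GC, while NDUFB3 (40.6%) and UQCRB (38.9%) were among the poorest.

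**Figure D5:**
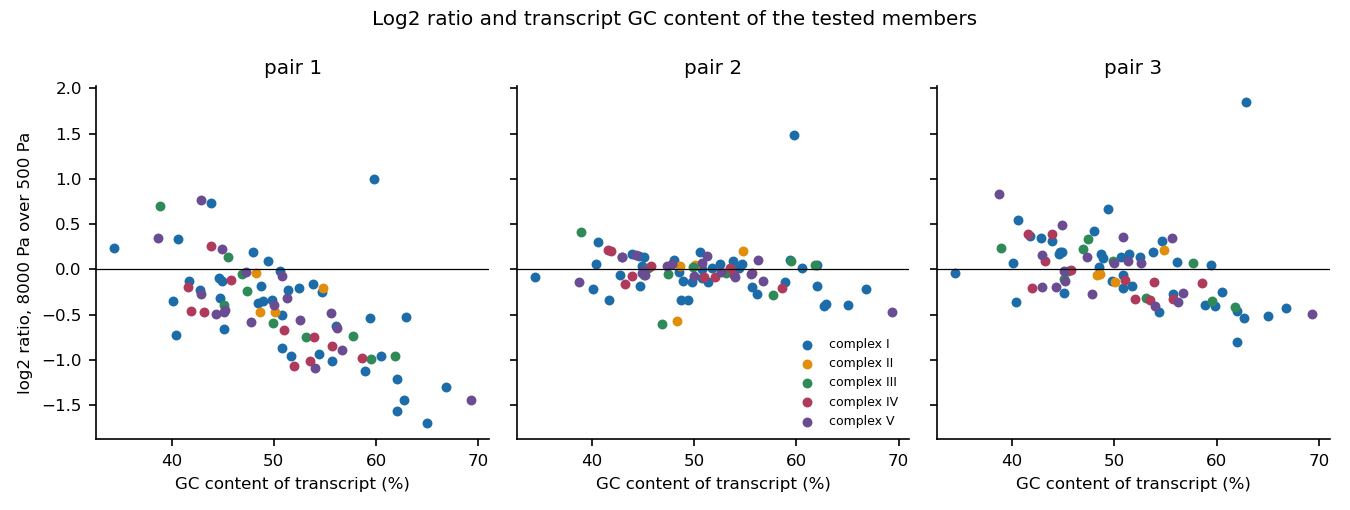
Log2 ratio of 8000 Pa over 500 Pa (y axis) against transcript GC content in percent (x axis) for the 81 tested members in pairs 1, 2 and 3, coloured by complex. The Pearson r is -0.67 in pair 1, -0.15 in pair 2 and -0.37 in pair 3, and the Spearman rho is -0.68, -0.23 and -0.52 in this order.

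Promoter motifs and place in the genome were set beside the fold changes as a description. Subunit genes with at least 1 of the motifs in their promoter had a median fold change of -0.20 (34 genes), against -0.11 for those without (29 genes), and the same medians with the longer NRF1 form (32 and 31 genes). CYC1 was placed among the genes without a motif by the promoter of CCNI, not by its own. Of the tested members, 11 lie on chromosome 19 (13.6%), against 6.63% of all tested genes. NDUFB7, NDUFA11, NDUFA13, NDUFS7 and ATP5D are among these 11 and are singled out here after their values were seen.

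The machinery around the chain was examined in lists of related genes. Assembly factors had 0 calls in either fit: the median log2 fold change was 0.05 for 15 factors of complex I, -0.32 for 4 of complex II, -0.22 for 6 of complex III, 0.03 for 21 of complex IV and -0.11 for 5 of complex V, inhibitor included. BCS1L, which inserts the Rieske protein into complex III, had 47.7, 48.1 and 72.7 CPM in the 8000 Pa libraries, against 92.3, 49.3 and 110 CPM in the 500 Pa libraries. COA4, a complex IV assembly factor, had 76.9, 101 and 128 CPM in the 8000 Pa libraries, against 149, 119 and 164 CPM in the 500 Pa libraries. Both were lower at 8000 Pa in each pair, with overlapping groups. Fold changes were below 0 for 7 of 15 factors of complex I and 10 of 21 of complex IV. They were below 0 for 3 of 4 factors of complex II, 4 of 6 of complex III and 5 of 5 of complex V. SDHAF2, which helps attach the flavin to SDHA, had 58.5, 62.8 and 77.5 CPM in the 8000 Pa libraries, against 85.7, 73.8 and 116 CPM in the 500 Pa libraries.

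Electron carriers and coenzyme Q genes had a median of -0.04 over 17 genes with 0 calls. COQ4, needed for coenzyme Q synthesis, had 45.9, 64 and 89.7 CPM in the 8000 Pa libraries, against 116, 77 and 158 CPM in the 500 Pa libraries, with a paired adjusted p of 0.0738 (edgeR). ETFDH, which feeds electrons from fatty acid oxidation into ubiquinone, had 39.4, 22.8 and 22.5 CPM in the 8000 Pa libraries, against 20.1, 17.3 and 11.9 CPM in the 500 Pa libraries. Its groups did not overlap, and the paired adjusted p was 0.209 (edgeR).

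TCA cycle enzymes had a median of -0.09 over 14 genes, and MDH2, malate dehydrogenase, had a log2 fold change of -0.37 (SE 0.29). Carriers of adenine nucleotides and phosphate and the porins had a median of -0.15 over 7 genes. SLC25A5, the main adenine nucleotide carrier by counts, had 687, 842 and 852 CPM in the 8000 Pa libraries, against 963, 951 and 977 CPM in the 500 Pa libraries. SLC25A4, another adenine nucleotide carrier, had 91, 81.1 and 93.7 CPM in the 8000 Pa libraries, against 101, 97.6 and 95.6 CPM in the 500 Pa libraries. SLC25A3, the phosphate carrier, had 721, 941 and 953 CPM in the 8000 Pa libraries, against 1074, 965 and 1110 CPM in the 500 Pa libraries. The groups of these 3 genes did not overlap, against 2.85% of all tested genes lower in this way, and 0 of the 3 passed the test. SLC25A4 is named after its values were seen. Regulators of respiratory genes had a median of -0.02 over 15 genes with 0 calls. PPRC1, a coactivator of this class, had a log2 fold change of -0.57 (SE 0.33). The TCA, carrier and regulator lists had 0 calls in either fit.

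Epithelial markers were abundant in this epithelial line. All 8 epithelial markers were tested and KRT8 averaged 9061 ± 3224 CPM at 8000 Pa and 11249 ± 3609 CPM at 500 Pa (SD, n = 3 each). The summed epithelial level was 10904 to 21148 CPM at 8000 Pa and 14048 to 26334 CPM at 500 Pa, most of it KRT8 and KRT18. The pair medians of the list were -0.92, -0.01 and -0.01, and 6 of 8 markers had fold changes below 0, with 0 of 8 past the test in either fit. CDH1, E-cadherin, had 405, 427 and 388 CPM in the 8000 Pa libraries, against 253, 377 and 269 CPM in the 500 Pa libraries, and its groups did not overlap. EPCAM had 345, 245 and 167 CPM in the 8000 Pa libraries, against 213, 310 and 138 CPM in the 500 Pa libraries. CDH1 and EPCAM, the 2 markers with fold changes above 0, were higher at 8000 Pa in pair 1, where the list's median was -0.92. KRT17 and KRT5 had the smallest unadjusted p of the list, with unpaired log2 fold changes of -0.89 (SE 0.36) and -0.60 (SE 0.27). In pair 1 KRT17 had 881 CPM at 8000 Pa and 2408 CPM at 500 Pa, and KRT5 378 and 887 CPM in this order. The leukocyte markers PTPRC and CD3E were at 0 counts, and the leukocyte list summed to 19.8 to 42.8 CPM at 8000 Pa and 21.9 to 47 CPM at 500 Pa. The fibroblast markers COL1A2 and COL3A1 were at 0 counts, and the list of 5 summed to 0.959 to 4.65 CPM at 8000 Pa and 0.95 to 1.86 CPM at 500 Pa. Of 5 endothelial markers, the paired fit called PECAM1 and CDH5 higher, by 1.01 and 1.99 on the log2 scale (adjusted p = 0.00537 and 3.14e-04, edgeR), while TEK had 0 counts, VWF 7 and KDR 9. Their sum was 208 to 252 CPM at 8000 Pa and 92.7 to 149 CPM at 500 Pa. The part of these marker levels in the results above was not tested.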

How the data were processed

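The counts are the authors' raw whole-number counts per gene symbol, made with HISAT2 2.1.2 and HTSeq 0.11.4 on GRCh38, per the submitters' processing notes, which also name limma and DESeq2. The log2 values deposited by the authors are TMM-scaled per the file headers and served only as a check. They are filled in for 8593 genes, and over 7257 well-counted genes they lay within 0.0129 of values computed here, after a shift of up to 0.0855 per library.

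The counts went into edgeR 4.0.16 (R 4.3.3) with filterByExpr (minimum count 10, minimum total 15), TMM, the quasi-likelihood F test for stiffness alone, and Benjamini-Hochberg adjustment over all 11517 tested genes at an FDR of 0.05. The steps were tested on simulated data. Alternatives were the replicate block, DESeq2 1.42.0, limma-voom (limma 3.58.1), other scalings and filters, loess offsets (span 0.3) for GC content and transcript length, and leaving out libraries. Deviations from group means correlated within same-numbered pairs at 0.409, 0.184 and 0.516, each above 0.1, so the labels' numbers were taken to pair the samples, although 8000 Pa replicate 1 with 500 Pa replicate 2 reached 0.199. In the paired fit edgeR set all genes to a shared spread trend, and its p-values rest on that trend. Every pair of libraries differed beyond sampling noise, with a chi-square per degree of freedom of 11.8 or more.

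Members and lists were chosen with earlier results of these data known, and complexes and lists are described by counts and medians without a test. Genes named with values were those passing in either fit, the 3 of smallest p and the 2 of highest level per kb in each complex, core complex I, the SDH genes, isoform groups and members under the filter. From each other list, passing genes or up to 2 of smallest p were taken. Other genes were named after their values were seen (NDUFB1, NDUFB3, NDUFA3, ATP5E, ATP5EP2, COX6C, COX7C, neighbours of low members, KRT8, KRT18, CDH1, EPCAM). GENCODE 29 on GRCh38 gave positions, lengths and GC content, with a match for 95 of 95 members and 98.5% of tested genes. The limit set for a count of 0, 3 counts, equals 0.168 to 0.429 CPM per library and covers counting error only. Some items are not reported here.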

Additional observations from a re-analysis of the deposited data

How the results depend on the processing

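Which genes were called depended on the block. Against 0 of all genes unpaired, the replicate block, which follows the pairing of the labels' numbers, gave 61, DESeq2 7 and 42 with the block, no low count filter 8, the GC offset with the block 79, and length and GC offsets with the block 57. Leaving out libraries gave 0 to 1 calls unpaired, and with the block 38, 81 and 12 without replicates 1, 2 and 3. Of the members, 1 was called with the block (NDUFB7), 1 with length and GC offsets and the block (UQCRB), and 0 to 2 when libraries were left out (NDUFB7 and NDUFS8 without replicate 2 in the paired fit). The block changed no other call among the members. The cause of these shifts was not tested. The length of the NRF1 motif, a choice changed after seeing the data, moved the subunit promoters that held it to 15 with the longer form, against 21.

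Median fold changes of the complexes under the alternatives lay between -0.25 and 0.06 for complex I, -0.30 and 0.01 for II, -0.28 and -0.03 for III, -0.39 and -0.08 for IV and -0.24 and 0.02 for V. They stayed within the SD of their 3 pair medians, a wide measure because it includes pair 1. The medians of complexes I, II and V had the other sign under some alternatives. The log2 ratio of all summed members lay between -0.37 and -0.06. Of 35 named genes, 12 had a log2 fold change of the other sign under some alternative. With library size alone, ATP5B was 0.13, COX7A2 0.13, NDUFS5 0.04 and UQCR10 0.01. With the length offset, ATP5B was 0.05, COX7A2 0.20, COX7B 0.04, NDUFS5 0.10, SDHC 0.05 and UQCR10 0.03, and COX7A2 was 0.04 with length and GC offsets and the block. NDUFV2 was -0.10 and UQCRH -0.12 with the GC offset, and -0.13 and -0.14 with the block as well. Leaving out single libraries gave -0.14 to 0.09 for ATP5B, -0.11 to 0.12 for COX7A2, -0.33 to 0.04 for COX7B, -0.35 to 1.10 for NDUFA4L2, -0.03 to 0.10 for NDUFV2, -0.05 to 0.19 for SDHA, -0.28 to 0.01 for UQCR10, -0.06 to 0.11 for UQCRH and -0.29 to 0.02 for UQCRHL. Leaving out pairs in the paired fit gave -0.11 to 0.14 for ATP5B, -0.07 to 0.03 for COX7A2, -0.33 to 0.02 for COX7B, -0.49 to 0.93 for NDUFA4L2, -0.17 to 0.02 for NDUFS5, -0.26 to 0.01 for SDHB, -0.25 to 0.08 for UQCR10, -0.10 to 0.16 for UQCRH and -0.27 to 0.08 for UQCRHL. None of these 12 genes was called under any of these settings. With 3 libraries a group, and 8000 Pa replicate 1 lowest for most members, most differences of the size seen here could not be told from the spread, and a missing call does not show equal levels.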
